A study of Mus musculus with 56 samples.

Results

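D164A/fl cells are mouse mammary tumor cells in which a β-catenin allele carrying the D164A point mutation stands beside a floxed allele that still makes wild-type β-catenin. The D164A protein no longer binds the coactivators Bcl9 and Bcl9L. The Wnt3a experiment of these cells comprised 4 of the 56 RNA-sequencing samples of the series, and they were chosen by their labels alone. In 2 of these samples the cells received recombinant Wnt3a at 100 ng/ml for 3 days, and 2 untreated samples served as control. The labels add a daily renewal of Wnt3a, in a protocol text that names Pygo2 lines instead of these cells. The same experiment on fl/fl cells, which carry a pair of floxed wild-type alleles, and on D164A/- cells, which had lost the floxed allele after infection with an adenovirus for Cre and GFP and a sort for GFP, gave 4 samples each for comparison. All 3 lines derive from tumors of female FVB/N mice with the MMTV-PyMT transgene, in which the mouse mammary tumor virus promoter drives the polyoma middle T oncogene in mammary epithelium, and fibroblasts had been removed by differential trypsinization. The study's methods give the tumor-bearing mice as 12-week-old and the samples as biological duplicates, but the labels do not say whether the duplicates came from separate tumors or separate cultures of a line, so the p-values measure only the spread between these samples, which may be technical. A further pair of untreated D164A/fl samples belonged to the TGFβ experiment, which lasted 4 days, and served as control only where it is named. The samples of all 3 lines in that experiment, untreated or given TGFβ at 2 ng/ml, also entered the statistical fit. There they contributed to the shared estimate of the spread and to the filter on low values.

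Wnt3a is the textbook ligand of the canonical Wnt pathway. It binds Frizzled and Lrp receptors, the destruction complex around Axin and Apc is then held back, and β-catenin accumulates and enters the nucleus, where it binds the TCF/LEF factors on DNA and recruits Bcl9, Bcl9L and Pygopus. Many genes that this pathway switches on are inhibitors of the pathway itself. In the mammary gland Wnt signals act on basal and stem cells, and strong β-catenin activity in mammary epithelium is known to turn it towards squamous, skin-like differentiation.

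Upon treatment with Wnt3a, D164A/fl cells raised 410 genes and lowered 202 of 12868 genes tested. The retinol receptor gene Stra6 had the largest increase and the transferrin gene Trf the largest decrease. Among the 15 largest increases were also the pathway's own inhibitor Axin2 (from 1.18 and 1.66 CPM to 154 and 149 CPM) and Krt6b and Sprr1a of squamous epithelium, and among the 15 largest decreases the Notch target Hey1, the casein genes Csn3 and Csn1s1 and the ERK feedback genes Etv5 and Dusp6. CPM denotes the reads of a gene per M (mega) reads of scaled library size, a level that is not divided by gene length, so that levels are compared between samples and not between genes.

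The 4 samples held 27.0 and 27.5 M reads in genes (untreated) and 28.2 and 27.0 M (Wnt3a), against 22.4 to 33.7 M over all 56 samples, so that a single read was worth 0.0327 to 0.0360 CPM. Epithelial markers were present throughout: Epcam stood at 597 and 690 CPM in the untreated and 644 and 605 CPM in the treated samples, and Cdh1, encoding E-cadherin, at 829, 892, 981 and 972 CPM. Of the defining markers of other cell types, Ptprc, Adgre1 and Cd3e of blood cells, Lum and Col1a2 of fibroblasts, Kdr of endothelium and Adipoq of adipocytes stood at or below 0.144 CPM in each of the 4 samples, whereas the platelet-derived growth factor receptor Pdgfra was expressed at 52.6, 61.9, 54.5 and 50.4 CPM.

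The untreated duplicates were far apart. They differed by at least 1 on the log2 scale in 2871 genes, compared with 282 genes between the Wnt3a duplicates and 171 genes between the untreated duplicates of the TGFβ experiment. Over 13754 genes that reached 1 CPM in a pair of samples or more, the profile of untreated replicate 2 was closest to the untreated replicate 2 of D164A/- cells (Pearson r 0.973 across genes, which are not independent), ahead of its own duplicate (r 0.950), while untreated replicate 1 was closest to an untreated D164A/fl sample of the TGFβ experiment (r 0.978). The difference between the untreated duplicates ran with the GC content of the genes (Spearman rho −0.73 over 12422 genes), and so did the difference between the treated duplicates (rho −0.54), whereas the mean response did not (rho −0.014). The part of library preparation in this difference was not tested.

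Untreated replicate 2 was then compared with the other samples over genes that mark the genotypes. These genes were chosen in the TGFβ experiment, as at least 10 CPM in each sample of a line and under 1 CPM in each sample of another. Of 30 genes high in D164A/fl and low in fl/fl cells, 30, 29, 29 and 29 reached 1 CPM in untreated replicates 1 and 2 and Wnt3a replicates 1 and 2. Of 60 genes with the opposite pattern 2, 5, 2 and 4 did so. Krt17, encoding a keratin of basal and stressed epithelium, separated D164A/fl from D164A/- cells: it stood at 132, 274, 292 and 348 CPM in the 4 D164A/fl samples and at 0.510, 2.03, 0.407 and 2.37 CPM in the D164A/- samples. Flot2, encoding a membrane raft protein, had the opposite pattern, with 0.169, 0.108, 0.164 and 0.105 CPM against 18.0, 9.41, 17.3 and 7.59 CPM. Of 14 genes high in D164A/fl and low in D164A/- cells, 14 reached 1 CPM in untreated replicate 1 but 10 in untreated replicate 2, and 12 and 10 in the treated samples, compared with 2 and 6 in the untreated and 4 and 8 in the treated D164A/- samples. Of 7 genes with the opposite pattern 2 did so in each of the 4 D164A/fl samples and all 7 in each D164A/- sample. The untreated sample was kept under its label, and the results are given with and without each untreated replicate.

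**Figure D1:**
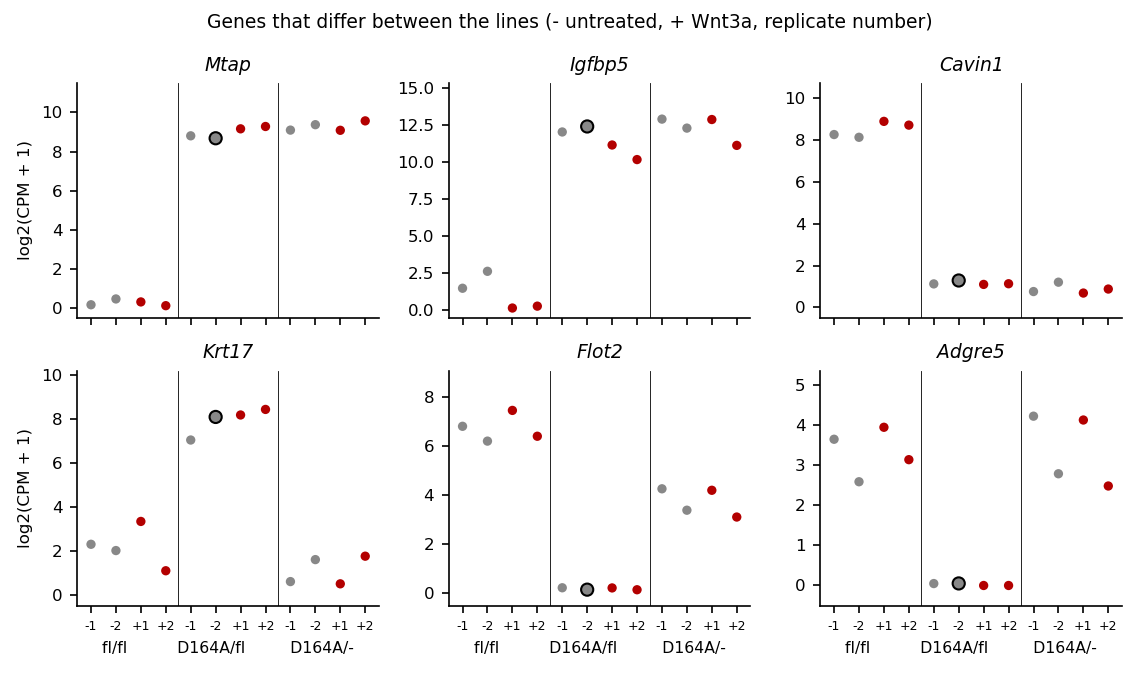
Levels, as log2(CPM + 1), of 6 genes that differ between the lines in the 12 samples of the Wnt3a experiment (grey untreated, red Wnt3a; the larger outlined point is untreated replicate 2 of D164A/fl cells). Mtap, Igfbp5 and Cavin1 separate fl/fl cells from both other lines and not D164A/fl from D164A/- cells, while for Krt17, Flot2 and Adgre5 the outlined point lies with the other D164A/fl samples, at 274 CPM for Krt17, where the D164A/- samples stay at or below 2.37 CPM.

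Testing was done with limma over the 24 samples of the 3 lines from both experiments, TGFβ-treated samples included. A gene was called at a Benjamini-Hochberg adjusted p of at most 0.05 and a change of at least 1 on the log2(CPM + 1) scale. The 612 calls were 4.76% of the genes tested, with 3.19% higher and 1.57% lower upon Wnt3a. The treated and untreated values did not overlap in any of the 612 genes, which 40.5% of all genes tested also show. Large changes made up a somewhat larger share of the increases. By at least 2 on the log2 scale 160 genes rose (39% of the increases) and 64 fell (31.7% of the decreases). By at least 4, 26 rose (6.34%) and 4 fell (1.98%). Of the genes that rose, 133 were below 1 CPM in both untreated samples, and 79 entered the test only because the treated samples were high, which leaves 331 increases among genes that reached the filter otherwise. The counts by size were not made without these 79 genes.

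Leaving out untreated replicate 1 gave 687 calls (334 higher, 353 lower, 5.34% of the genes tested) and leaving out untreated replicate 2 gave 611 (424 higher, 187 lower, 4.75%). Of the 612 genes, 445 were also called without replicate 1, 436 without replicate 2 and 317 (240 higher, 77 lower) in both cases. The calls fell to 349 and 384 when Wnt3a replicate 1 or 2 was left out. With the spread estimated from these 4 samples alone, 52 genes passed (49 higher, 3 lower). Within the replicate numbers, 499 of the 612 genes moved by at least 1 in the same direction in both.

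**Figure D2:**
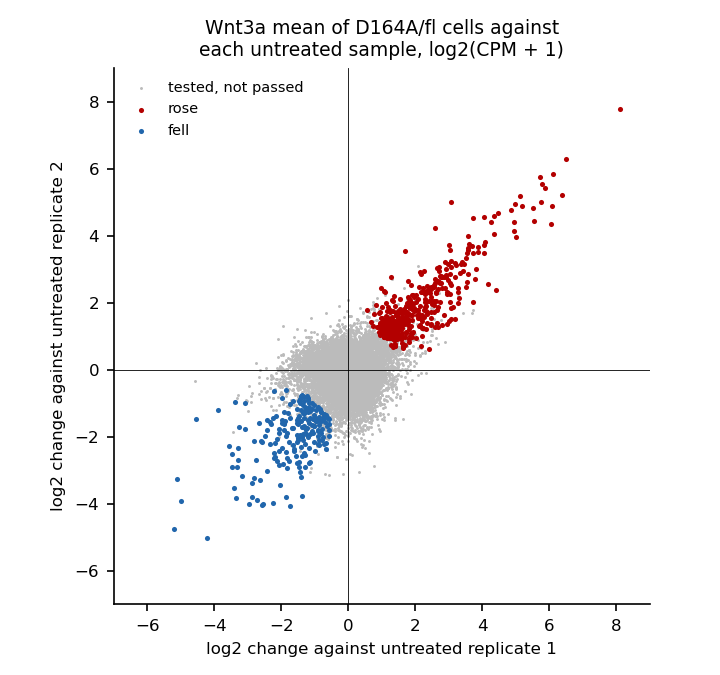
Each point is a gene, with the change of the Wnt3a mean against untreated replicate 1 (x axis) and against untreated replicate 2 (y axis), both as differences of log2(CPM + 1). Red and blue points are the 410 genes that rose and the 202 that fell, and grey points are the other genes tested. The distance of a point from the diagonal of equal changes shows how far apart the untreated duplicates were for that gene.

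Wnt feedback inhibitors, the genes by which the pathway limits itself, gave 5 increases and no decrease among 13 tested members of a list of 22, beside 3.19% and 1.57% of all genes, with a median log2 change of 0.87 against −0.05 for all genes tested. Axin2 (Entrez 12006, chr11:108917828-108950783, GRCm38), encoding a scaffold of the destruction complex, had the largest change of the list, at 5.98 ± 0.45 on the log2 scale (SE, adjusted p = 4.01e-07, limma), a 107-fold ratio of the means. Rnf43, encoding a ubiquitin ligase that removes Frizzled receptors from the membrane, stood at 2.94 and 5.12 CPM untreated and at 27.9 and 31.3 CPM with Wnt3a (log2 change 2.64 ± 0.28, adjusted p = 1.14e-05, limma). Apcdd1, encoding a membrane inhibitor of Wnt ligands, rose from 2.43 and 3.89 to 19.5 and 18.9 CPM. In all 3 genes the duplicates of each condition lay close together compared with the change.

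Notum, encoding an enzyme that inactivates Wnt ligands by removing their lipid, was measured at 8.77 and 28.8 CPM untreated and at 149 and 205 CPM with Wnt3a (log2 change 3.36 ± 0.75, adjusted p = 0.0114, limma). Its call was lost without untreated replicate 1 (adjusted p = 0.0962) and without either Wnt3a replicate. Wif1, encoding a secreted factor that binds Wnt ligands, rose from 1.05 and 1.23 to 5.40 and 2.46 CPM, a call lost without Wnt3a replicate 1, by edgeR, by DESeq2 and with a pseudocount of 0.1. Nkd2, encoding an inhibitor of Dishevelled, had 260 and 428 CPM untreated and 899 and 851 CPM with Wnt3a, groups that did not overlap, but its log2 change of 1.39 did not pass (adjusted p = 0.165, limma). The related Nkd1 and the secreted inhibitors Dkk1 and Dkk2 stood at no more than 1 read in any of the 4 samples.

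The 250 bases before the start of transcription of Axin2 (chr11:108920099-108920348, plus strand, GRCm38.p6, RefSeq) are shown because this gene is the reference target of the pathway, and those of Asprv1 (chr6:86627924-86628173, plus strand), which encodes the skin aspartic protease that processes filaggrin and was among the largest increases. Those of Dusp6 (chr10:99262981-99263230, plus strand), encoding the phosphatase that inactivates ERK, and of the casein gene Csn1s1 (chr5:87665958-87666207, plus strand) are shown as genes that fell. Capitals mark matches to the TCF/LEF recognition sequence, written as CTTTG followed by 2 letters that are each A or T, on either strand.
Axin2: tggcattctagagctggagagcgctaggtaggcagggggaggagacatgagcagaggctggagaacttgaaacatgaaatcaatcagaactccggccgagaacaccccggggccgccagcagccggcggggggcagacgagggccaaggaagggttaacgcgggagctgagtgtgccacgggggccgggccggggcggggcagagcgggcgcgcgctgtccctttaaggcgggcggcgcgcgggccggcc
Asprv1: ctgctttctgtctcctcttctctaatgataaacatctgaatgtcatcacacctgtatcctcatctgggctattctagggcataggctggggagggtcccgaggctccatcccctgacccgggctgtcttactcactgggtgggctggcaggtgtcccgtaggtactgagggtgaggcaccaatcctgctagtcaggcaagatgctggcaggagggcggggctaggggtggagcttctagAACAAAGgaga
Dusp6: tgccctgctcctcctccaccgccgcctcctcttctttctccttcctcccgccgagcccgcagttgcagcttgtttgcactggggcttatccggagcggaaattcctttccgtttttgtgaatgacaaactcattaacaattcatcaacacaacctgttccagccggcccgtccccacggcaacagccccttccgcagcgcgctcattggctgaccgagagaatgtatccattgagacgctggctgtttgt
Csn1s1: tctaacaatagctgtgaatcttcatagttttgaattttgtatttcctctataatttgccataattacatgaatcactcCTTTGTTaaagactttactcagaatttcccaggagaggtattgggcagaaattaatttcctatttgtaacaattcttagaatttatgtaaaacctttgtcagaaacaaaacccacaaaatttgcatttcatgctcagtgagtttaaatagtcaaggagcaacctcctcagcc
The Axin2 and Dusp6 windows hold no match. The Asprv1 window holds 1 match on the minus strand, 11 bases before the start, and the Csn1s1 window holds 1 on the plus strand, 172 bases before the start. RefSeq promoter windows were matched for 10188 of the genes tested, many with several starts. At least 1 match lay in 59 of 387 windows of genes that rose (15.2%), in 22 of 199 of genes that fell (11.1%) and in 1350 of 13015 of all genes tested (10.4%). The 6 windows of Wnt feedback inhibitors held none, which says only that these letters are not in these windows.

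Among the TCF/LEF factors and transcription factors known as Wnt targets, none of 14 tested members rose and 1 fell, beside 3.19% and 1.57% of all genes. Msx1, a homeobox factor, fell from 1.69 and 3.32 to 0.589 and 0.666 CPM, although it was not called without untreated replicate 2. Tcf7, encoding the TCF factor that is itself a common Wnt target, was the same in all 4 samples within their spread, with 55.7, 53.5, 56.7 and 56.2 CPM (log2 change 0.05). In fl/fl cells Tcf7 rose by 2.05 (adjusted p = 9.60e-05, limma), and the responses differed between these lines (adjusted p = 0.000737, limma). Myc stood at 143 and 102 CPM untreated and at 125 and 97.9 CPM with Wnt3a, which overlap.

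Of 17 tested genes of a wider list of Wnt targets, 3 rose and 2 fell, beside 3.19% and 1.57% of all genes. Mmp7, encoding the matrix protease matrilysin, rose from 0.270 and 0.360 to 9.58 and 6.95 CPM (log2 change 2.80 ± 0.22, adjusted p = 4.92e-07, limma), Lbh, a transcription cofactor of basal mammary cells, from 10.3 and 15.2 to 39.9 and 54.3 CPM, and Tnfrsf19, a receptor of the tumor necrosis factor family, from 0.0675 and 0.288 to 2.29 and 1.61 CPM. Trib2, a pseudokinase gene, was lower with Wnt3a (256 and 339 to 70.8 and 78.8 CPM), as was the tight junction gene Cldn2 (4.39 and 9.01 to 0.327 and 0.491 CPM). Neither was called without untreated replicate 2 or without Wnt3a replicate 1, and Trib2 was also not called without Wnt3a replicate 2. Against the untreated samples of the TGFβ experiment neither decrease passed, and the change of Trib2 had the opposite sign. Ccnd1, encoding cyclin D1 of the G1 phase, had 1750 and 1574 CPM untreated and 837 and 946 CPM with Wnt3a, a log2 change of −0.90 (adjusted p = 0.0303, limma) that stayed under the 2-fold limit.

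Receptors moved both ways, with 2 increases and 2 decreases among 16 tested, beside 3.19% and 1.57% of all genes. Ror1, an orphan receptor tyrosine kinase that binds Wnt5a, rose from 17.3 and 19.4 to 69.6 and 73.1 CPM (log2 change 1.90 ± 0.32, adjusted p = 0.00127, limma), and the Frizzled gene Fzd1 rose by 1.27, a call lost without untreated replicate 1 or Wnt3a replicate 1. Fzd4 fell by 1.41 on the log2 scale and Fzd9 by 1.03, calls that were lost without either Wnt3a replicate and without untreated replicate 1 and 2, respectively. Of 10 tested ligand and secretion genes 2 rose and none fell, beside 3.19% and 1.57% of all genes. They were Wnt7a (0 and 0.288 to 1.90 and 2.91 CPM) and Wnt11 (0.540 and 0.613 to 3.34 and 2.25 CPM). The Wnt7a call was lost without untreated replicate 1 or Wnt3a replicate 2. The Wnt11 call was lost without Wnt3a replicate 1, by edgeR and against the untreated samples of the TGFβ experiment. Both ligand genes stayed at or below 3.34 CPM in each of the 4 samples, close to the filter of 1 CPM.

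β-Catenin itself and its partners were outside the calls. Of 23 tested genes for β-catenin, the destruction complex and nuclear cofactors none passed, and their median log2 change was −0.03, with −0.31 and no call without untreated replicate 1 and 0.28 and 2 increases without untreated replicate 2. Ctnnb1, the β-catenin gene with the mutated and the floxed allele counted together, stood at 759 and 1012 CPM untreated and at 1548 and 1576 CPM with Wnt3a, a log2 change of 0.83 (adjusted p = 0.0162, limma) under the 2-fold limit. The coactivator gene Bcl9 had 49.1 and 70.5 CPM untreated and 93.1 and 103 CPM with Wnt3a, and Bcl9l had 60.6 and 231 CPM against 102 and 115 CPM.

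**Figure D3:**
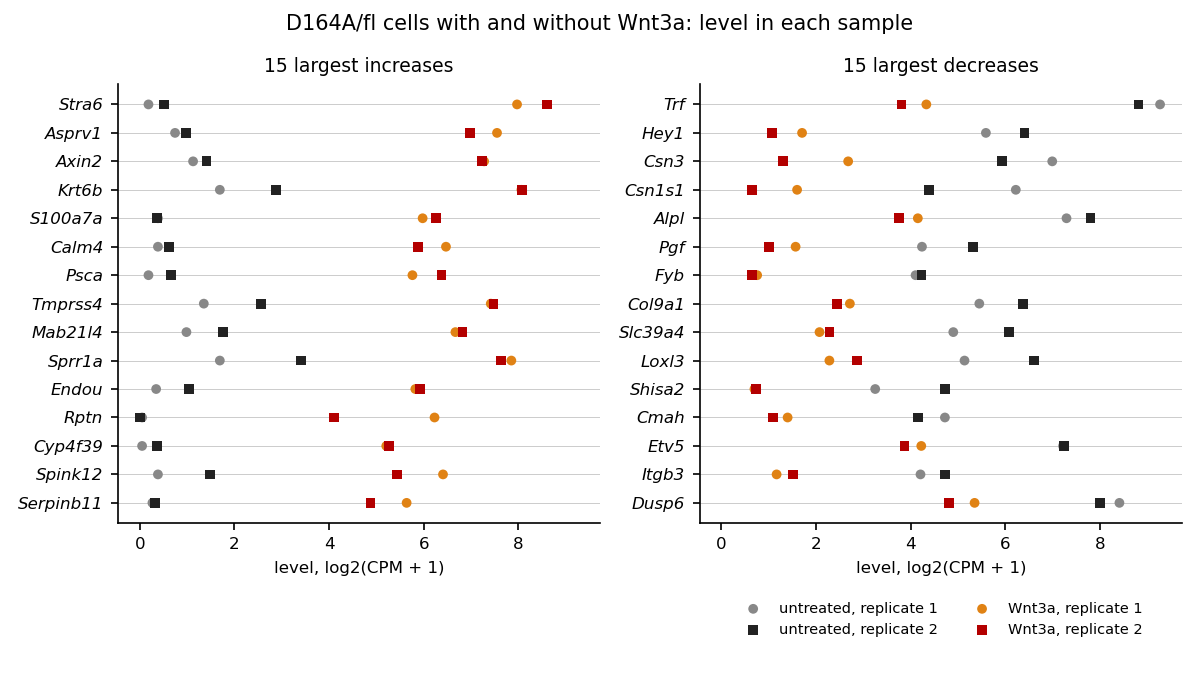
Levels, as log2(CPM + 1), of the 15 genes with the largest increases and the 15 with the largest decreases among the called genes, in each of the 4 D164A/fl samples (grey and black untreated, orange and red Wnt3a; circles replicate 1, squares replicate 2). The 2 conditions lie apart in each gene, from 0.135 and 0.433 to 250 and 388 CPM in Stra6 and from 615 and 449 to 19.1 and 13.0 CPM in Trf.

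Genes of squamous epithelium rose together. Of 30 genes of squamous and epidermal differentiation 26 were tested, 11 rose and none fell, beside 3.19% and 1.57% of all genes. All 26 changes were positive, with a median of 1.88, and 2 of the members had entered the test only through the treated samples, which leaves 9 of 24. The summed level of the list was 808 and 1391 CPM untreated and 4083 and 4374 CPM with Wnt3a. Since the samples are bulk RNA, more cells that express these genes and more RNA per cell cannot be told apart.

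The keratins of stratified epithelium led the list. Krt6b (chr15:101676023-101680293), a keratin of wound-edge and hair follicle epithelium, rose from 2.23 and 6.31 to 266 and 268 CPM (log2 change 5.79 ± 0.62, adjusted p = 1.48e-05, limma), and Krt16, which marks the same cells, from 5.77 and 10.7 to 224 and 190 CPM. Krt1, the keratin of suprabasal epidermis, was not detected in the untreated samples and had 4.12 and 1.54 CPM with Wnt3a. It may be among the 2 list members that entered the test only through the treated samples, so its increase is given as a level only. The basal keratins did not follow: Krt14 stood at 506 and 2408 CPM untreated and at 1863 and 2479 CPM treated, and Krt5 at 222 and 805 CPM against 652 and 974 CPM, so that the untreated duplicates spanned most of the range. Krt6 genes have near-identical copies, and the share of reads between them depends on the uniquely mapped positions.

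Sprr1a, encoding a precursor of the cornified envelope, rose from 2.23 and 9.62 to 230 and 198 CPM (log2 change 5.19 ± 0.80). Cnfn, encoding cornifelin of the same envelope, rose from 0.0675 and 0.324 to 21.8 and 19.7 CPM, and Ppl, encoding the plakin that anchors it to desmosomes, from 86.3 and 88.4 to 429 and 431 CPM. Dlx3, a homeobox factor needed in upper epidermal layers, rose from 0.506 and 0.793 to 22.5 and 16.0 CPM. Of the other envelope genes, Lor, encoding loricrin, stayed at or below 0.456 CPM, and Ivl, encoding involucrin, overlapped between the conditions, with 1.96 and 0.541 CPM untreated and 5.17 and 1.79 CPM treated.

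The largest increase of all, Stra6 (Entrez 20897, chr9:58063793-58154004), encodes the membrane receptor that takes up retinol from its plasma carrier. It stood at 0.135 and 0.433 CPM untreated and at 250 and 388 CPM with Wnt3a, a log2 change of 7.94 ± 0.60 (adjusted p = 4.29e-07, limma). Asprv1 rose from 0.675 and 0.973 to 186 and 124 CPM. Calm4, a calmodulin-like gene of skin (chr13:3837757-3838671), rose from 0.304 and 0.541 to 87.5 and 58.1 CPM, and Psca, the prostate stem cell antigen gene (chr15:74714839-74717065), from 0.135 and 0.577 to 53.2 and 82.0 CPM. The 15 largest increases also included the antimicrobial S100a7a (0.304 and 0.288 to 61.9 and 75.9 CPM), the protease gene Tmprss4 (1.55 and 4.87 to 170 and 177 CPM), the repetin gene Rptn of the cornified envelope (0.0337 and 0 to 73.9 and 16.2 CPM) and the protease inhibitor genes Spink12 and Serpinb11. Of these, Serpinb11 entered the test only because the treated samples were high. Each of the 15 was called without either untreated replicate.

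Il17rd and Ahr rose outside these groups. Il17rd, encoding a membrane inhibitor of FGF and ERK signaling, rose from 4.45 and 4.00 to 75.5 and 57.8 CPM (log2 change 3.68 ± 0.36, adjusted p = 6.29e-06, limma), and Ahr, the aryl hydrocarbon receptor gene, from 40.2 and 22.8 to 610 and 482 CPM (4.12 ± 0.30, adjusted p = 2.73e-07). Ahr belongs to the study's list of Wnt3a-regulated genes whose expression was affected by the loss of β-catenin binding to Bcl9 and Bcl9L. Of 36 tested members 26 rose and none fell (beside 3.19% and 1.57% of all genes). Their median log2 change was 2.39, and 2.23 without untreated replicate 1. The median was 1.17 in D164A/- and 1.02 in fl/fl cells, with 8 and 2 members rising there. Over all 12868 genes tested only 33 rose in D164A/- and 20 in fl/fl cells, against 410 in D164A/fl cells. Ahr itself rose by 3.22 on the log2 scale in D164A/- cells and changed by 1.20 in fl/fl cells, where it did not pass. The study's figure legend compares mutant lines, D164A/- among them, with wild-type control lines and does not name D164A/fl cells. Whether D164A/fl samples took part in the choice is not stated. The D164A/- samples did take part, so these counts and medians are not independent evidence of the list's direction.

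Il17rd was the exception in its own list, since the other called ERK feedback genes fell. These genes are switched on by ERK and limit it, and 5 of 14 tested fell and 1 rose (beside 1.57% and 3.19% of all genes), with a median log2 change of −1.20. Dusp6 (Entrez 67603, chr10:99263231-99267489) stood at 339 and 255 CPM untreated and at 39.7 and 27.0 CPM with Wnt3a, a log2 change of −3.13 ± 0.43 (adjusted p = 0.000184, limma). Etv5 and Etv4, ETS factors that ERK signaling induces, fell from 148 and 149 to 17.7 and 13.6 CPM and from 49.5 and 77.1 to 18.8 and 20.9 CPM. The Sprouty genes Spry4 (29.1 and 11.4 to 2.03 and 1.12 CPM) and Spry2 (36.2 and 38.9 to 11.0 and 10.8 CPM), encoding inhibitors of receptor tyrosine kinase signaling, fell as well. There were 5 decreases without untreated replicate 1 and 6 without untreated replicate 2.

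Of 17 tested luminal mammary markers 4 fell (Csn3, Prlr, Areg and Foxa1) and none rose, beside 1.57% and 3.19% of all genes. Their median log2 change was −0.30 beside −0.05 for all genes tested. The count was 1 without untreated replicate 1 and 4 without untreated replicate 2. Csn3, encoding κ-casein (chr5:87925579-87932550), was at 126 and 59.6 CPM untreated and at 5.40 and 1.47 CPM with Wnt3a (log2 change −4.46 ± 0.86, adjusted p = 0.00392, limma). Csn1s1, encoding α-casein and not on this list, was at 73.5 and 19.9 CPM against 2.03 and 0.561 CPM, and its adjusted p was 0.0828 without untreated replicate 1. Prlr, the prolactin receptor gene, had 75.1 and 25.3 CPM untreated and 11.7 and 4.00 CPM treated, and the epidermal growth factor receptor ligand gene Areg had 238 and 27.8 CPM untreated and 11.9 and 7.33 CPM treated. The untreated duplicates of Areg were further apart than untreated replicate 2 was from the treated samples. Foxa1, a luminal transcription factor, was lower in both treated samples (14.0 and 12.4 to 5.20 and 5.09 CPM). Of the 4 luminal markers, Csn3 was called without untreated replicate 1 but not without Wnt3a replicate 2, and Prlr, Areg and Foxa1 were not called without untreated replicate 1 or without either Wnt3a replicate.

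Trf and Hey1 were the largest decreases. Trf (Entrez 22041, chr9:103208876-103230286), encoding the iron carrier transferrin that mammary epithelium secretes into milk, fell from 615 and 449 to 19.1 and 13.0 CPM (log2 change −4.97 ± 0.52, adjusted p = 1.13e-05, limma). Hey1 (chr3:8663359-8667038), a target of Notch signaling, fell from 47.1 and 83.5 to 2.26 and 1.09 CPM (−4.61 ± 0.58, adjusted p = 7.63e-05). In the untreated samples of the TGFβ experiment Trf stood at 254 and 446 CPM, but Hey1 at 3.43 and 7.33 CPM, and against those samples the change of Hey1 was −1.22 and did not pass. Hey1 was the only called gene of 11 tested in the Notch list, beside 1.57% of all genes that fell. In that list Hes1 (38.5 and 58.0 to 25.9 and 28.6 CPM) and Notch1 (194 and 476 to 129 and 139 CPM) did not pass.

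The other members of the 15 largest decreases included Alpl, the tissue-nonspecific alkaline phosphatase gene (156 and 221 to 16.7 and 12.5 CPM), Pgf, a placental growth factor gene (17.9 and 38.6 to 1.96 and 1.02 CPM), the zinc transporter gene Slc39a4 (28.8 and 66.3 to 3.20 and 3.86 CPM) and the collagen crosslinking enzyme gene Loxl3 (34.1 and 96.8 to 3.86 and 6.24 CPM). Shisa2, Cmah, Col9a1, Fyb and the integrin gene Itgb3 belonged to the same set. Untreated replicate 2 was the higher of the untreated samples for Pgf, Slc39a4 and Loxl3, and all 3 were called without it. Against the untreated samples of the TGFβ experiment Csn1s1, Shisa2, Slc39a4, Cmah, Col9a1 and Itgb3 did not pass, with Col9a1 at 4.60 and 6.98 CPM there beside 42.7 and 82.1 CPM in the untreated and 5.56 and 4.42 CPM in the treated samples of the Wnt3a experiment.

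Genes of other programs moved in small numbers, to be read beside 3.19% higher and 1.57% lower over all genes tested. Among 18 tested genes of the TGFβ and BMP response 3 rose: the matricellular Ccn2 (129 and 121 to 769 and 471 CPM), the ligand gene Tgfb2 (24.7 and 30.4 to 66.4 and 60.8 CPM) and the BMP inhibitor gene Nog (0.135 and 0.108 to 2.06 and 1.96 CPM). The call of Tgfb2 was lost against the untreated samples of the TGFβ experiment, used alone or together with untreated replicate 1. Of 22 genes of the epithelial-mesenchymal transition, Vim, encoding vimentin, was the only one called: it had 158 and 548 CPM untreated and 55.2 and 62.9 CPM treated, its adjusted p was 0.196 without untreated replicate 2, and the call was also lost without either Wnt3a replicate. Against the untreated samples of the TGFβ experiment Vim was higher with Wnt3a, by 1.34 on the log2 scale. Of 12 targets of the YAP/TEAD factors Fjx1 rose, and of 11 basal markers the oxytocin receptor gene Oxtr fell, a call lost without untreated replicate 2 or Wnt3a replicate 2.

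The cell cycle inhibitor Cdkn2b rose from 27.2 and 32.0 to 78.6 and 80.1 CPM and was the only called gene of 24 of the cell cycle, but the call was lost whichever of the 4 samples was left out, as were those of Pfkp and Nog. Mki67 was measured at 404 and 102 CPM untreated and 142 and 50.9 CPM treated, which overlap. In glycolysis and hypoxia 2 of 14 fell (beside 1.57% of all genes), the glucose transporter gene Slc2a1 (156 and 263 to 55.8 and 65.7 CPM) and Pfkp (69.4 and 75.4 to 26.0 and 28.7 CPM). The stress-response factor gene Xbp1 rose from 204 and 296 to 566 and 553 CPM, a call lost without untreated replicate 1, alone among 11 genes of the endoplasmic reticulum stress response. None of 17 interferon-stimulated genes and none of 17 cholesterol synthesis genes passed, beside 4.76% of all genes. The cholesterol genes all had positive changes with a median of 0.38, which was −0.06 without untreated replicate 1 and 0.91 without untreated replicate 2.

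None of the fibroblast, endothelial or adipocyte markers tested was called. Csf1r, the receptor gene of macrophage colony-stimulating factor, rose from 0.472 and 1.91 to 10.8 and 16.6 CPM, whereas the other macrophage genes stayed as they were, with Cd68 at 2.83, 3.68, 2.91 and 4.21 CPM and Adgre1 at 0 in each of the 4 samples.

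**Figure D4:**
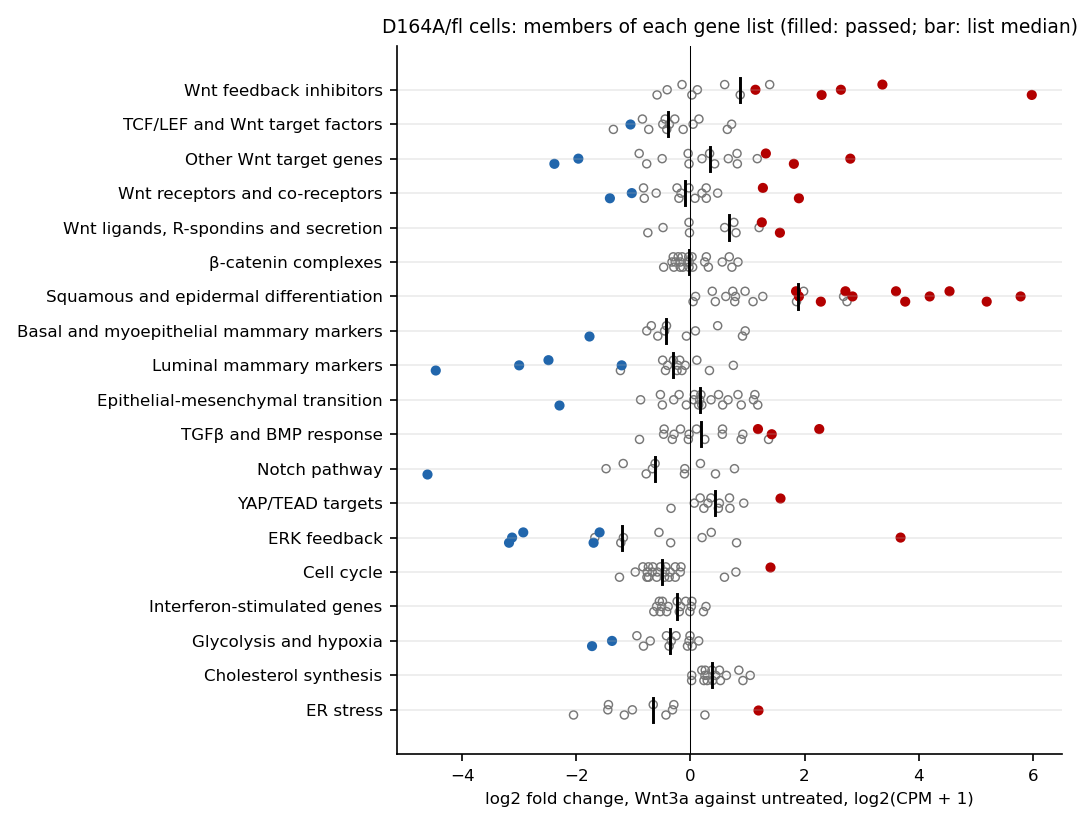
Each point is a tested member of a gene list with at least 10 tested members, placed at its limma log2 fold change, Wnt3a against untreated, in D164A/fl cells. Filled points passed (red higher, blue lower), open points did not, and the bar is the list's median, which is 1.88 for squamous and epidermal differentiation and −1.20 for ERK feedback.

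The Axin2 response did not differ detectably between the lines. Axin2 rose from 0.252 and 0.652 to 121 and 51.0 CPM in fl/fl cells and from 0.365 and 1.52 to 39.9 and 95.3 CPM in D164A/- cells. The change in D164A/fl cells minus that in fl/fl cells was 0.19 ± 0.64 on the log2 scale (adjusted p = 0.859, limma), and minus that in D164A/- cells 0.90 ± 0.64 (adjusted p = 1.00). Stra6 likewise rose in each line, from 0.726 and 2.19 to 93.5 and 139 CPM in fl/fl cells and from 0 and 0.169 to 17.7 and 141 CPM in D164A/- cells, with differences of 2.32 ± 0.85 (adjusted p = 0.149) and 2.36 ± 0.85 (adjusted p = 0.599) that did not pass.

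Squamous genes were among those whose response differed between the lines in a test of the difference itself. The response differed from that of fl/fl cells in 420 genes (3.26% of those tested), of which 259 (2.01%) were more positive in D164A/fl cells, and from that of D164A/- cells in 104 genes (0.808%), of which 92 (0.715%) were more positive. Of the 612 called genes, 582 (95.1%) moved in the same direction in D164A/- and 396 (64.7%) in fl/fl cells. The share over all genes tested was not computed. The genes tested include 126 that entered only because the treated D164A/fl samples were high, 79 of them called as increases. The counts of differing genes were not made without them. These counts depended on the tool, since edgeR on the recovered reads called 107 genes against fl/fl and 0 against D164A/- cells (394 of the latter at an unadjusted p under 0.05), and DESeq2 called 589 and 14. Krt6b had 0.0631 and 0.345 CPM untreated and 9.89 and 0.361 CPM with Wnt3a in fl/fl cells, and 0.365 CPM or less in each D164A/- sample, and the difference was 4.10 ± 0.88 (adjusted p = 0.0175, limma) and 5.59 ± 0.88 (adjusted p = 0.00265). Psca stayed at or below 1.10 CPM in each fl/fl sample and at or below 0.693 CPM in each D164A/- sample, with differences of 5.23 ± 0.38 and 5.36 ± 0.38. Of the 26 tested genes of the squamous list, 6 differed from fl/fl and 3 from D164A/- cells, beside 3.26% and 0.808% of all genes. Of these 26 genes, 2 had entered the test only through the treated D164A/fl samples. Sprr1a of this list differed from neither line (adjusted p = 0.212 and 0.150, limma), and neither did Asprv1 (0.182 and 0.471). In fl/fl cells Sprr1a had 0.284 and 3.91 CPM untreated and 43.5 and 4.51 CPM with Wnt3a. Asprv1 had 0.442 and 1.99 against 92.6 and 1.35 CPM there. S100a7a and the myelin and lymphocyte protein gene Mal differed from fl/fl cells at a high level in that line: Mal had 339 and 857 CPM untreated and 317 and 581 CPM with Wnt3a in fl/fl cells, and 9.65 and 14.6 against 324 and 329 CPM in D164A/fl cells.

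The ERK feedback genes differed from fl/fl cells in 7 of 14 cases and from D164A/- cells in none, beside 3.26% and 0.808% of all genes. Finding none of 14 lies near the latter share and says little about these genes. Dusp6 had 42.6 and 21.2 CPM untreated and 33.3 and 28.6 CPM with Wnt3a in fl/fl cells, levels that the treated D164A/fl cells reached from a higher start. In D164A/- cells Dusp6 stood at 168 and 113 CPM against 71.9 and 38.2 CPM, a log2 change of −1.38, and the difference to D164A/fl cells was −1.75 ± 0.60 (adjusted p = 0.546, limma). Trf was near its treated level in fl/fl cells throughout (7.51, 4.45, 7.73 and 5.91 CPM) and moved from 185 and 171 to 47.5 and 20.4 CPM in D164A/- cells. The difference from fl/fl was −5.16 ± 0.74 (adjusted p = 0.000807) and that from D164A/- cells −2.50 ± 0.74 (adjusted p = 0.276).

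The comparison with fl/fl cells carries the spread of that line as well, since its Wnt3a duplicates differed by at least 1 in 3027 genes. The number of differing genes ranged from 152 without Wnt3a replicate 1 of D164A/fl cells to 2506 without Wnt3a replicate 2 of fl/fl cells, and was 1267 without untreated replicate 1 and 264 without untreated replicate 2 of D164A/fl cells.

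**Figure D5:**
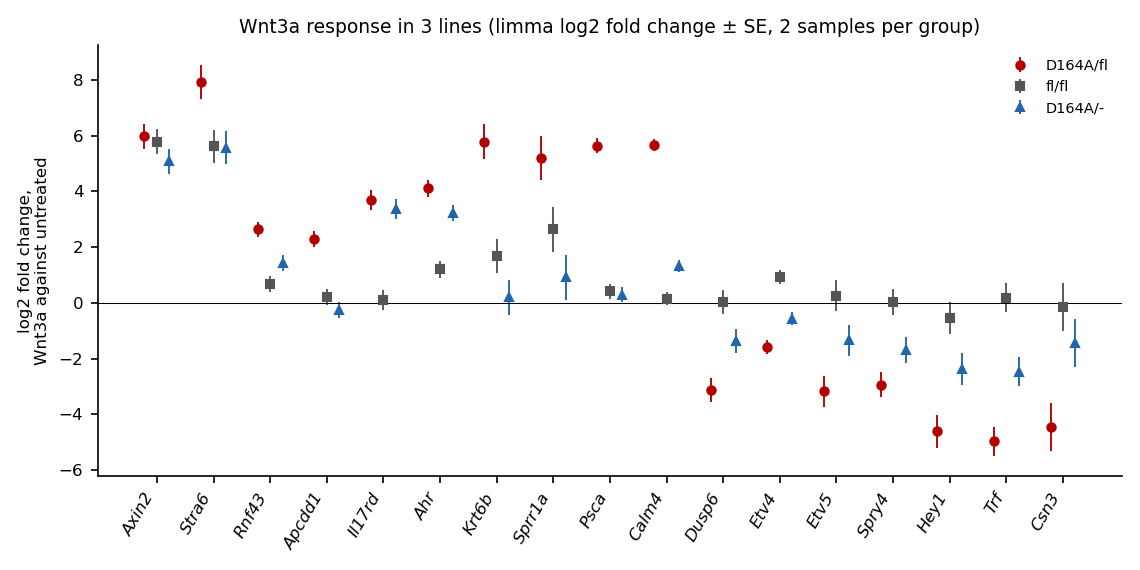
Log2 fold change, Wnt3a against untreated, with its SE from limma, of 17 genes in D164A/fl (red circles), fl/fl (grey squares) and D164A/- cells (blue triangles), 2 samples per group. Axin2 rose in all 3 lines (5.98, 5.79 and 5.08), whereas Krt6b changed by 5.79 in D164A/fl, 1.69 in fl/fl and 0.20 in D164A/- cells.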

How the data were processed

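RNA from 56 samples was sequenced, and the authors mapped reads with STAR to mm10, kept unique hits and counted reads per RefSeq gene with QuasR, using strand-specific poly(A) libraries. The deposited values are a signal that the authors call CPM: reads per M of effective library size, for 20314 Entrez genes. The steps of this signal gave back whole reads for 100% of values (tolerance 0.001), 22.4 to 33.7 M per sample. Intervals for counting error were not computed.

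Values were tested as log2(CPM + 1) with limma (version 3.58.1, R 4.3.3, trend). The fit covered the 24 samples of fl/fl, D164A/fl and D164A/- cells in both experiments, in 12 groups that share the spread. Genes of at least 1 CPM in at least 2 of these samples were tested. A gene passed at a Benjamini-Hochberg adjusted p of at most 0.05 and a log2 change of at least 1. Fold changes on this scale understate the change of low genes. Differences between lines were tested as interaction contrasts. Alternatives were edgeR (4.0.16, quasi-likelihood test on the recovered reads, 532 genes called), DESeq2 (1.42.0), other scalings, filters, pseudocounts and controls, a replicate block, removal of the GC trend and leaving out each sample. The code was tested on simulated data. The members and gene lists were chosen with earlier results of these data known. Named are list members, genes that mark the lines, the 15 largest increases and 15 largest decreases among called genes whose groups did not overlap and whose treated mean differed from untreated replicate 1 alone by at least 1 in the same direction, and the 5 largest differences in each direction from each line. Coordinates and promoter windows are GRCm38 (RefSeq).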

Additional observations from a re-analysis of the deposited data

Results flagged for a closer look

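The responses to Wnt3a differed between lines in the interaction test of limma, in 420 genes for D164A/fl minus fl/fl cells and in 104 genes for D164A/fl minus D164A/- cells. Genes that entered the test only through the treated D164A/fl samples were not taken out of these counts. Against fl/fl cells the 5 most positive differences of log2 change belonged to Calm4 (5.52), Psca (5.23), S100a7a (5.13), Mal (5.00) and Rptn (4.91), and the 5 most negative to Loxl3 (−3.59), Ptprv (−3.98), Hey1 (−4.07), Pgf (−4.19) and Trf (−5.16). Calm4 stayed at or below 0.368 CPM in each fl/fl sample. Ptprv, encoding a receptor-type phosphatase, stood at 23.7 and 32.6 CPM untreated and at 3.11 and 2.07 CPM with Wnt3a in D164A/fl cells, and at 0.599 and 0.767 against 2.98 and 1.67 CPM in fl/fl cells.

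Against D164A/- cells the most positive differences belonged to Krt6b (5.59), Psca (5.36), Serpinb11 (4.65), Calm4 (4.36) and Tmprss11d (4.19), and the most negative to Slc4a11 (−2.21), Ephb1 (−2.21), Id4 (−2.32), Clec11a (−2.71) and Slc39a4 (−2.94). Serpinb11 entered the test only because the treated D164A/fl samples were high. Tmprss11d stayed at or below 0.450 CPM in each fl/fl and D164A/- sample of the Wnt3a experiment. A positive difference of a gene that entered in this way follows in part from the filter. The receptor gene Ephb1 was read in none of the fl/fl samples and by at most 1 read in the D164A/- samples, beside 13.9 and 14.1 CPM untreated and 1.86 and 2.77 CPM with Wnt3a in D164A/fl cells. Slc4a11, a membrane transporter gene, fell from 56.9 and 42.3 to 6.97 and 11.0 CPM in D164A/fl cells and stood at 67.8 and 57.4 against 70.7 and 44.7 CPM in D164A/- cells.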

How the results depend on the processing

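The 2 against 2 design, with untreated duplicates far apart, limits these results. With the spread taken from the samples compared alone, 49 genes were higher and 3 lower upon Wnt3a, 12 differed from fl/fl and 27 from D164A/- cells, and the list counts were 1 (Wnt feedback), 5 (squamous) and 1 (ERK feedback, lower). Leaving out 1 sample gave 256 to 424 genes higher, 93 to 353 lower, 152 to 2506 differing from fl/fl and 73 to 120 from D164A/- cells, and 3 to 6, 9 to 11 and 5 to 6 members of the 3 lists. The untreated samples of the TGFβ experiment as control gave 1701 genes higher and 964 lower, with 8, 20 and 9 list members. Those samples together with untreated replicate 1 gave 1282 and 815, with 20 squamous and 9 ERK feedback members. The first of these controls reversed Fzd9 (0.13), Oxtr (1.46), Trib2 (0.74) and Vim (1.34), and the second Oxtr (0.47) and Vim (0.42). Myc ranged from −0.36 to 0.11 when 1 sample was left out, with a positive sign without untreated replicate 1 (0.11) and without Wnt3a replicate 2 (0.05). The cause of these shifts was not tested.

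The labels give the groups the same replicate numbers but do not say that a number marks a shared culture or day. Same-numbered samples deviated together (r across genes 0.68 in D164A/fl, 0.51 in fl/fl and 0.89 in D164A/- cells, 2 pairs each). The replicate block gave 560 genes higher, 406 lower and 2153 differing from fl/fl cells, and with the GC trend removed 642 higher, 337 lower, 1458 and 209 differing from fl/fl and D164A/- cells, and 8 ERK feedback members.

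For the difference from fl/fl cells edgeR called 107 genes. For the difference from D164A/- cells edgeR called 0 (394 at an unadjusted p under 0.05), DESeq2 14, and a pseudocount of 0.1 gave 28. The whole 300-base promoter window raised the share of all promoters with a match to 11.6%. Of 94 called genes named by the rules, 94 remained called with the block, 92 with median-of-ratios scaling, 90 with the GC trend removed, 91 without the filter, 89 by DESeq2, 86 with the pseudocount of 0.1 and 82 by edgeR, but 76 and 80 with the controls from the TGFβ experiment, 72 and 73 without Wnt3a replicate 1 or 2, 76 and 83 without untreated replicate 1 or 2, and 25 with the samples compared alone. Genes near 1 CPM rest on few reads.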

Other observations

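The following families were chosen after the values were seen, so their counts are descriptions. The epidermal differentiation complex, the gene cluster of chromosome 3 between S100a1 and S100a10 (chr3:90511034-93564645, GRCm38) that encodes proteins of the cornified envelope, held 70 genes in the table, of which 38 were tested, 23 rose and none fell, beside 3.19% of all genes rising. Of these, 13 reached the filter only through the treated samples, which leaves 10 increases among 25. Kprp, a keratinocyte proline-rich protein gene, stood at 0 and 0.288 CPM untreated and at 16.6 and 11.1 CPM with Wnt3a, and Crct1, a cysteine-rich gene of the same cluster, at 0.304 and 0.577 against 29.8 and 14.7 CPM. The peptidoglycan recognition genes Pglyrp4 (0.270 and 0.108 to 11.3 and 7.02 CPM) and Pglyrp3 (9.79 and 5.41 to 50.7 and 43.7 CPM) of innate immunity lie in the same cluster. The Lce and Sprr2 genes of the cluster are near-identical copies, so the levels of single members are uncertain.

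The skin proteases of the kallikrein family showed 6 increases among 9 tested, again beside 3.19% of all genes, and 4 increases among the 6 that had not entered only through the treated samples. Klk6 rose from 6.38 and 6.13 to 102 and 73.5 CPM, Klk14 from 26.2 and 15.4 to 272 and 173 CPM and Klk7, an enzyme of desquamation, from 0.742 and 0.288 to 26.2 and 14.6 CPM. Of 14 desmosome genes 5 rose and none fell (3 of 12 without those that entered only through the treated samples), among them the desmoglein gene Dsg1a (0.641 and 0.180 to 36.0 and 19.4 CPM) and the desmocollin gene Dsc1 (0.202 and 0.0721 to 14.3 and 5.75 CPM). Dsg1a and Dsc1 may be among those that entered only through the treated samples, whereas Ppl, also among the increases, reached the filter in the untreated samples. Of 8 genes of the interleukin 1 family 4 rose (2 of 6 by the same restriction), with the alarmin gene Il33 at 4.89 and 9.37 CPM untreated and 116 and 57.0 CPM with Wnt3a.

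Of 12 tested genes of retinoid uptake and metabolism, Stra6 included, 5 rose and 1 fell (4 and 1 of 11 by the same restriction, beside 3.19% and 1.57% of all genes). Rdh10, encoding the enzyme that oxidizes retinol to retinal, rose from 104 and 99.4 to 463 and 331 CPM, the carrier gene Rbp2 from 0.607 and 1.19 to 13.1 and 9.12 CPM, and Cyp26b1, encoding the enzyme that degrades retinoic acid, from 3.37 and 6.85 to 23.6 and 25.6 CPM. Dhrs9, another retinol dehydrogenase gene, stood at 19.7 and 2.88 CPM untreated and at 1.05 and 0.947 CPM with Wnt3a, so that untreated replicate 2 was nearer to the treated samples than to its duplicate on the CPM scale. In fl/fl and D164A/- cells Rdh10 changed by 0.30 and 1.54 on the log2 scale and Rbp2 by 0.06 and 0.90.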
